A study of Mus musculus with 2 samples.

Results

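The interferon-inducible p200 family, also called the PYHIN family, was followed in mouse bone marrow cultures with and without interleukin-6. The 6 members considered were Ifi203, Ifi204, Ifi205, Mnda, Mndal and Aim2. Members were chosen by name: a probe belonged to a member when the RefSeq accession printed with it on the array led to the member's symbol in a RefSeq gene table. By this rule 4 of the 6 members had a probe, Ifi204, Mnda, Mndal and Aim2, each with 1 probe printed once, among 20143 genes that could be named on the array. Mnda was reached through its current symbol, Ifi211. No accession led to Ifi203 or Ifi205, and both were not analysed here. The accessions of 1532 other probes could not be named through the table, and whether family probes are among them was not tested.

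The samples were 2 cultures of bone marrow cells from C57BL/6 mice, grown for 4 days with 5% serum (FBS). Both contained GM-CSF at 40 ng/ml, a cytokine that drives granulocyte and macrophage growth. IL-6, a cytokine of inflammation whose receptor activates STAT3, was added at 40 ng/ml to the GM-CSF + IL-6 culture and was absent from the GM-CSF ONLY culture. Each culture's RNA carried the dye Cy3 and was read on an Agilent array of its own, both on 1 slide and in 1 scan. The cells are labelled as myeloid-derived suppressor cells, immature myeloid cells that restrain T cells, and neither the number of mice per culture nor a purification step is given in the labels. A single array stood for each condition, so the differences below lack replicates and p-values, and their precision is limited by the number of arrays. Each error is a technical SD from probes printed several times on the arrays and holds spot error only. The log2 ratio is GM-CSF + IL-6 minus GM-CSF ONLY throughout, and signals are scaled to a common 75th percentile. A ratio was counted as clearly lower at a log2 ratio of -0.32 or less and as clearly higher at 0.32 or more.

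Proteins of this family carry an N-terminal pyrin domain, a HIN domain that binds DNA, or both, and the genes lie side by side in a cluster that has expanded in the mouse. AIM2 binds double-stranded DNA in the cytosol through its HIN domain and recruits the adaptor ASC through its pyrin domain, which activates caspase-1. The p204 protein, product of Ifi204, is a mouse relative of human IFI16, acts in DNA sensing upstream of STING and has been linked to the differentiation of macrophages. Most members are induced by type I interferon through interferon-stimulated response elements, short sites for the ISGF3 complex and interferon regulatory factors. MNDA takes its name from its presence in the nuclei of human myelomonocytic cells.

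Promoter sequence was compared between the members. RefSeq windows of 300 bases (250 before and 50 after each annotated start, build GRCm38.p6) were on hand for 5 of the 6 members, all but Ifi204. The stretches below are 50 bases each, 5′ to 3′ on the strand of the gene. Capitals mark the 10 letters that match GAAATCGAAA, or match it with 1 substitution, and all but those of Ifi209 hold the core of an interferon-stimulated response element written as GAAANNGAAA. Ifi203 (chr1:173942503-173942552, minus strand), Mndal (chr1:173880199-173880248, minus strand), Mnda (chr1:173913059-173913108, minus strand) and Ifi205 (chr1:174031865-174031914, minus strand) all lay upstream of a start; Ifi203 and Mndal have 2 windows each.
Ifi203: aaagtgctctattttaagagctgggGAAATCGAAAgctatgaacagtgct
Mndal: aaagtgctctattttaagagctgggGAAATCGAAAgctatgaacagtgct
Mnda: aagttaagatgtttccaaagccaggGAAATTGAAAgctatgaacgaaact
Ifi205: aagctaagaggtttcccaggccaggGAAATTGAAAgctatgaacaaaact
Aim2: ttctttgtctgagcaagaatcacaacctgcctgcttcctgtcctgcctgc
The Ifi203 and Mndal stretches were identical at 50 of 50 bases, and those of Mnda and Ifi205 at 45 of 50. Counted from 1 at the first capital, Mnda and Ifi205 both carried C6T against GAAATCGAAA. The match began at position -35 for Ifi203, -36 for Mndal, -37 for Mnda and -134 for Ifi205, where -1 is the last base before the start. The Aim2 stretch (chr1:173420554-173420603, plus strand) is the 50 bases next to its start and holds no such letters, nor does the rest of its window. No match says only that these letters are not in this window.

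Other genes of the cluster were used for comparison: Ifi208, Ifi213 and Ifi214 held GAAATCGAAA, and Ifi209 matched it with 1 substitution.
Ifi208: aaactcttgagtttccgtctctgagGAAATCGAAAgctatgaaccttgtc
Ifi213: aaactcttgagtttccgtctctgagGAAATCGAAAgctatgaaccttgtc
Ifi214: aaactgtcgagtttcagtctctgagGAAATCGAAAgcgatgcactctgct
Ifi209: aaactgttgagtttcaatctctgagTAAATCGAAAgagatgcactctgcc
The Ifi208 (chr1:173673582-173673631, plus strand) and Ifi213 (chr1:173599321-173599370, minus strand) stretches were identical at 50 of 50 bases. That of Ifi214 (chr1:173536012-173536061, minus strand) shared 45 of 50 bases with that of Ifi209 (chr1:173630755-173630804, plus strand), which carried G1T. Searched on both strands, GAAANNGAAA was found in 10 of 14 PYHIN windows, against 3.44% of 32851 windows of the same length. By gene, it was in the windows of 9 of 12 PYHIN genes with a window. Some of these stretches are identical copies, as printed above, so the windows are not separate occurrences. The full spelling GAAATCGAAA was found in 16 of the 32851 windows, 7 of them in front of PYHIN genes. GAAATTGAAA, the spelling in Mnda and Ifi205, was in 38 windows. GAAATCGAAA and GAAATTGAAA are both spellings of GAAANNGAAA, so their matches overlap by construction. Both were picked as its commonest spellings in the PYHIN windows themselves. That choice raised their counts in front of PYHIN genes, so these counts are no separate result. TTCNNNGAA, the core of a site for STAT factors, was in 8.30% of all windows and in 1 of the 14 PYHIN windows, that of Ifi202b. It was in 0 windows of the 5 members, too few to set against that share.

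**Figure D1:**
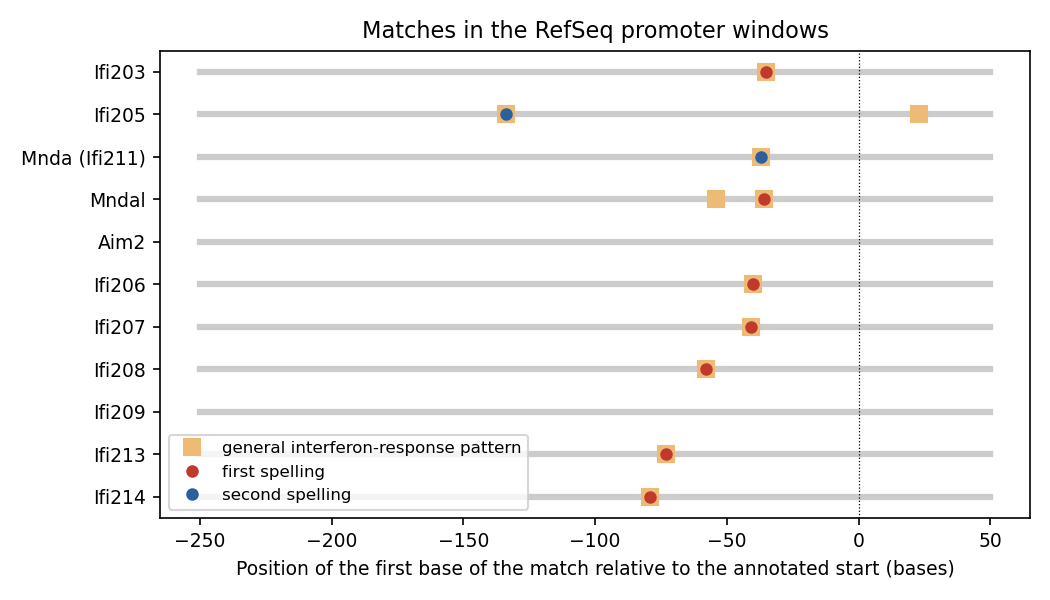
Position of the first base of each match relative to the annotated start, in bases, for 11 PYHIN genes with a RefSeq window (grey bars, 250 bases before to 50 after the start). Squares mark GAAANNGAAA, red points GAAATCGAAA and blue points GAAATTGAAA. Of the squares, 9 lie from -79 to -35 and 2 of Ifi205 lie at -134 and 23, while Aim2 and Ifi209 have none.

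All 4 measured members gave less signal in the culture with IL-6. A log2 ratio below 0 was found for 4 of 4 members, against 56.2% of 13843 genes measured on both arrays. Clearly lower were 3 of 4, against 3.55% of those genes. A signal lower by 2-fold or more was found for 0 of 4 members and 0.101% of genes. The median log2 ratio was -0.34 for the members and -0.02 for all genes. Values of 3 members lay close to -0.32, and the count of 3 became 1 when each spot was corrected for the spots around it (Mnda) and 2 in 5 of the other settings. The log2 ratio of each member was below 0 in all 47 values recomputed under 12 other settings. Settings that only change the filter, the spots kept or the choice of probe cannot alter a member with 1 probe printed once. They repeat its value or leave it out. Quantile normalization and the authors' deposited log2 values gave nearly the same member ratios, so they are hardly separate settings.

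**Figure D2:**
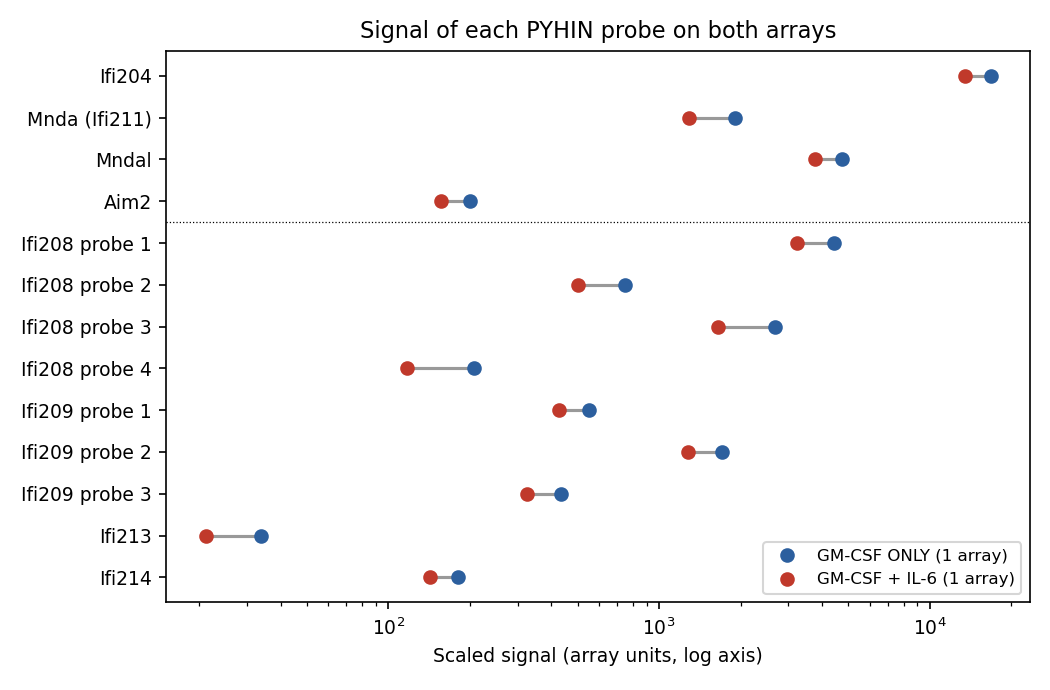
Scaled signal (array units, log axis) of each measured PYHIN probe on the GM-CSF + IL-6 array (red) and the GM-CSF ONLY array (blue), 1 array each, with members above the dotted line. In all 13 probes the red point lies to the left of the blue one.

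Mnda was the member furthest apart. Its scaled signal was 1291 with IL-6 and 1911 without, a log2 ratio of -0.57 ± 0.05 (technical SD), or 1.48-fold lower. The scanned mean signals behind it were 1306 over a local background of 52 with IL-6 and 2220 over 53 without. Only 82 of 13843 genes, itself included, had a log2 ratio this low, and among the 500 genes nearest to it in signal it had the lowest one. The SD of log2 ratios over those 500 genes was 0.13.

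Ifi204, the p204 gene, gave 13480 with IL-6 and 16754 without. The log2 ratio was -0.31 ± 0.04, just short of -0.32. The scanned means were 13285 and 19438 over backgrounds of 54 and 49.5, so the spot stood far above background on both arrays. Of the 500 genes nearest in signal, 7 had a ratio as low or lower, itself included, and the SD over them was 0.12. With normexp background correction its log2 ratio was -0.36.

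Mndal, named for its likeness to Mnda, gave 3779 with IL-6 and 4739 without. Its log2 ratio was -0.33 ± 0.05, just past -0.32, and 4 of the 500 genes nearest in signal were as low, itself included. The Ifi203 gene shares with Mndal the stretch printed above, and near-identical copies may also share transcript sequence. Whether a probe of the family takes up transcripts of its neighbours was not tested.

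Aim2, the DNA-binding inflammasome receptor, was the dimmest member. Its scaled signal was 157 with IL-6 and 199.8 without, with scanned means of 169 and 235 over backgrounds of 39 and 43. The log2 ratio was -0.35 ± 0.13, which is 2.61 technical SDs from 0, against 6.34 or more for the other members. Among the 500 genes nearest in signal, 16 were as low, itself included, and their SD was 0.19. Its spot lay in the last of the 384 rows of the array. The median log2 ratio of the 69 measured spots within 8 rows and columns of it was -0.07, against -0.02 to -0.01 around the other 3 members. With that local median taken off, the log2 ratio was -0.28, and with normexp it was -0.23.

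**Figure D3:**
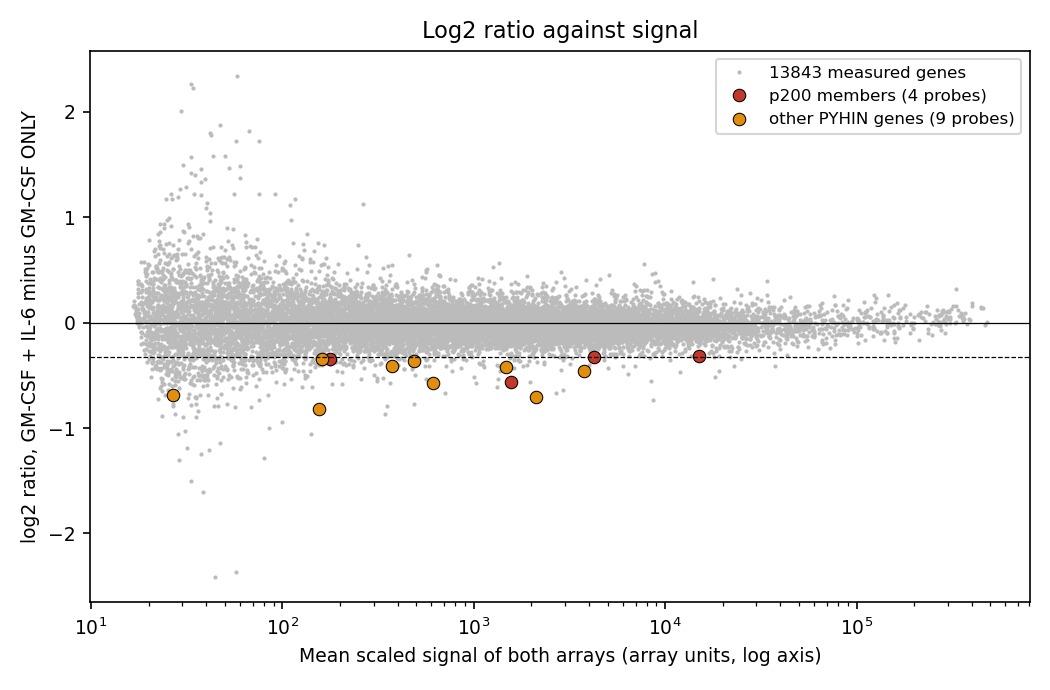
Log2 ratio against the mean scaled signal of both arrays (log axis) for 13843 measured genes (grey), the 4 probes of members (red) and 9 probes of other PYHIN genes (orange). The dashed line marks a log2 ratio of -0.32. The 13 PYHIN probes lie below 0, with Ifi213 the dimmest and Ifi204 the brightest of them.

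Other genes of the cluster with a probe were lower as well. Of 9 probes for Ifi208, Ifi209, Ifi213 and Ifi214, 9 were measured on both arrays and 9 were clearly lower, against 5.08% of 31516 measured probes. Together with the members this made 13 of 13 probes with a log2 ratio below 0, where 51.4% of all measured probes were, and 12 of 13 that were clearly lower. Several of these probes belong to the same gene. By gene, 3 of 4 members and 4 of 4 others were clearly lower, against 3.55% of genes. With normexp 2 members and 2 others were, against 0.954% of genes.

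Ifi208, which encodes a pyrin-domain protein, had 4 probes on the array, all of them lower with IL-6. The log2 ratios were -0.46 ± 0.05 (3228 against 4442), -0.57 ± 0.07 (503 against 748), -0.71 ± 0.05 (1647 against 2690) and -0.82 ± 0.15 (117 against 207). Its probes thus ranged from 1.38-fold to 1.76-fold lower, and the values of -0.46 and -0.71 lay further apart than the sum of their technical SDs. The 3 probes of Ifi209, also known as Pyhin1, lay close together at -0.36 ± 0.08, -0.42 ± 0.06 and -0.41 ± 0.09. Ifi214 gave -0.35 ± 0.14 (142 against 181). Ifi213 was close to background (21.1 against 34.0) with a log2 ratio of -0.69 ± 0.25, and -0.09 with normexp.

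Ifi202b was named after its values were seen. It encodes p202, a family protein without a pyrin domain that can hold back AIM2 and is known to be low in the C57BL/6 strain. Neither of its 2 probes was well above background on either array, so no ratio is given.

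**Figure D4:**
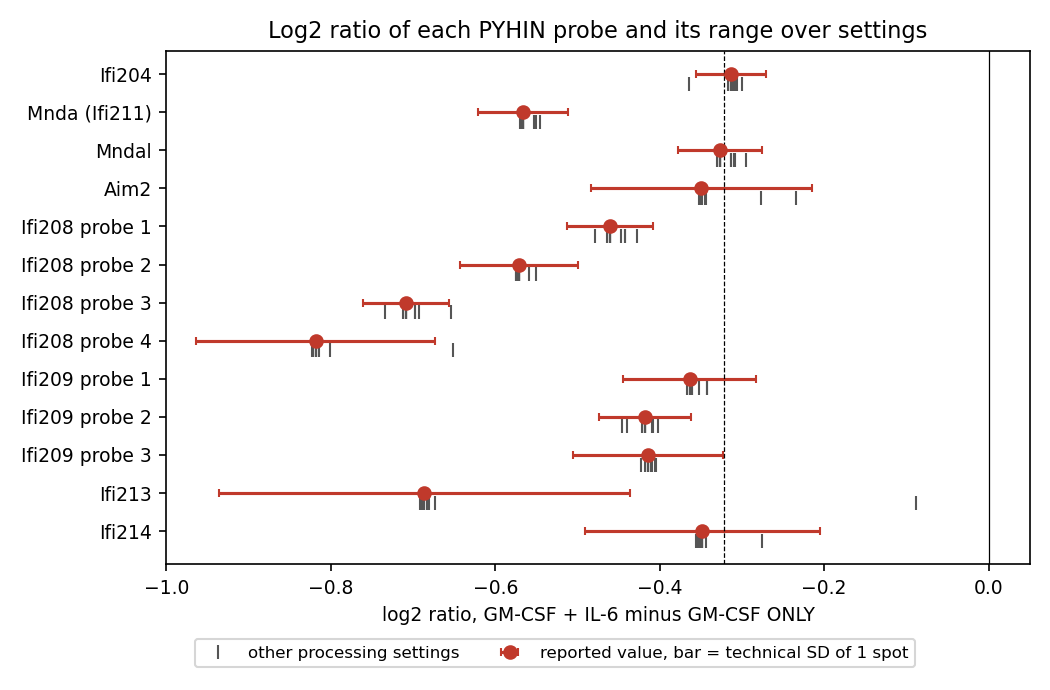
Log2 ratio of each of 13 measured PYHIN probes (red point, bar for the technical SD of 1 spot) and the same probe under other processing settings (grey ticks). The dashed line marks a log2 ratio of -0.32; all ticks lie left of 0, the closest being Ifi213 with normexp at -0.09.

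Genes that flank the cluster on chromosome 1 were mostly not well above background. Of the 10 protein-coding genes on either side, 20 in all and largely olfactory receptor genes, 4 were measured on both arrays. Fcer1a, a subunit of the IgE receptor, had a log2 ratio of 0.02 ± 0.07 (839 against 827). Ackr1, an atypical chemokine receptor gene, gave 0.64 ± 0.25 and Olfr432 gave 0.52 ± 0.19, while Olfr433 gave -0.26 ± 0.25, all at low signal. Of the measured neighbours, 3 of 4 had values above 0, against 6068 of 13843 genes, and that of Fcer1a lay within its technical SD of 0. With 4 genes, the count is too small to set against that share.

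Interferon-stimulated genes outside the family were lower in the same comparison. A list of 30 held 29 with a log2 ratio below 0 and 12 clearly lower (3.55% of all genes were), with a median of -0.29. The lowest were Ifi44, Ifit3 and Ifit1 at -0.67, -0.66 and -0.61, and the highest were Sp100 at 0.08, Ifi35 at -0.07 and Bst2 at -0.13. The regulator Irf7 was at -0.40. The 4 members, from -0.57 to -0.31, lay within the range of this list.

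Letters of the response element were also set against the ratios of all genes. Outside the PYHIN genes, 430 measured genes held GAAANNGAAA in a promoter window. Of these, 7.21% were clearly lower, against 3.37% of 10653 measured genes without it, and the medians were -0.05 and -0.02. Interferon-stimulated genes of the list above were not left out, so both results may rest on some of the same genes. Of 9 other genes with the spelling GAAATCGAAA, 6 were measured and 0 were clearly lower. Their log2 ratios were -0.31 for Ddx58, which encodes the RNA sensor RIG-I, -0.30 for Parp11, -0.17 for Pnrc1, -0.15 for Serpinb6a, -0.10 for Ripk1 and 0.11 for Adcyap1. For TTCNNNGAA, 4.71% of 956 genes with it and 3.41% of 10127 without it were clearly lower. These shares describe 1 pair of arrays, and genes are not replicates.

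Upstream of the family, the type I interferon genes on the list were at or near background. Ifnb1 (12.5 against 15.8) and Ifna4 (3.47 against 3.13) were not well above background on both arrays. With the looser background call Ifnb1 passed, at a log2 ratio of -0.34, and was then the 1 clearly lower gene of its list. Ifng, the type II interferon, was measured at low signal (32.6 against 39.1, log2 ratio -0.26 ± 0.18). Of 14 measured genes for interferons, their receptors and their signalling, 13 had a log2 ratio below 0 and 0 were clearly lower, with a median of -0.14. Irf1 gave -0.29 ± 0.04, Stat2 -0.24 ± 0.05 and Irf9 -0.16 ± 0.05, the last the DNA-binding subunit of ISGF3. The receptor genes Ifnar1 and Ifnar2 gave -0.20 (0.03 on another probe) and -0.10. The values nearest to or above 0 were Ifngr1 at 0.06, Ifngr2 at -0.02 and Tyk2 at -0.02.

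Inflammasome genes, partners of AIM2 among them, had ratios nearer to 0. Of 13 measured genes of inflammasomes and their products, 9 were below 0 and 0 were clearly lower, with a median of -0.12. The adaptor gene Pycard, which encodes ASC, had a log2 ratio of -0.05 ± 0.04 (28633 against 29675), Casp1 -0.16 ± 0.05 and Gsdmd, the pore former of pyroptosis, -0.03 ± 0.01. Among the products, Il1b gave -0.17 ± 0.01 and Il18 -0.24 ± 0.07. The lowest were Mefv, the pyrin gene, at -0.31, Casp4 at -0.30 and Ninj1 at -0.27. The highest were Nlrp3 at 0.26 (0.05 on another probe), Il1a at 0.17 and Nlrp1b at 0.17 (-0.10 on another probe).

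Genes of cytosolic DNA sensing were near 0 as a list, which is wider than the arm downstream of p204. Of 22 genes of cytosolic DNA sensing and its brakes, 13 were below 0, 0 were clearly lower, and the median was -0.03. Sting1, the adaptor downstream of p204 and cGAS, was at 0.10 ± 0.05 (9238 against 8603). Cgas, the synthase of cyclic GMP-AMP, was at -0.25 on its brighter probe and 0.25 on another, so its direction was not settled. Zbp1, a nucleic acid sensor, was at -0.30 (-0.05 on another probe), and Trex1, a DNA exonuclease, at -0.27. The highest besides Sting1 were Rnaseh2a at 0.15 (-0.17 on another probe) and Ddx41 at 0.09. Reported binding partners of p204 gave -0.03 for Rb1, -0.16 for Ubtf (0.09 on another probe), 0.13 for Id1, -0.07 for Id2 and -0.08 for Id3.

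Genes of the IL-6 receptor and STAT3 arm lay on both sides of 0. Of 10, 7 were below 0, 0 were clearly lower and 1 was clearly higher (4.17% of all genes were), with a median of -0.08. Pim1, a survival kinase, gave 0.37, Junb 0.24 and Socs3, the feedback inhibitor, 0.18, while Il6ra gave -0.22, Cebpd -0.21 and Bcl3 -0.15. Stat3 was at -0.09 (0.06 on another probe) and Il6st at -0.08.

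**Figure D5:**
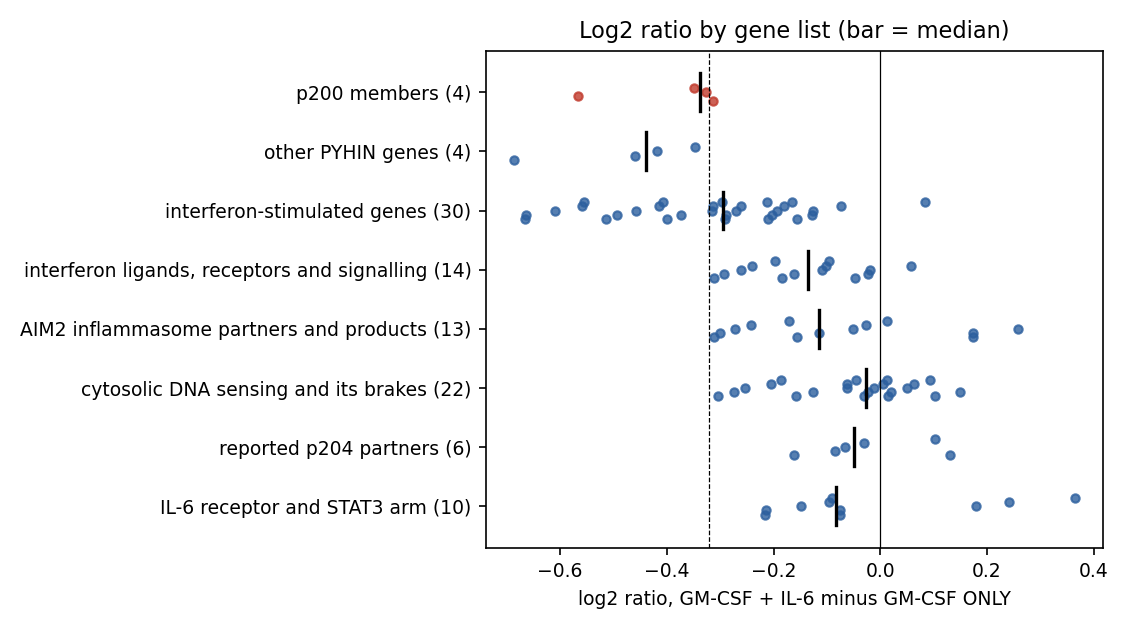
Log2 ratios of the 4 members (red) and of the measured genes of 7 lists (blue), with the number of genes in brackets, a bar for each median and a dashed line at -0.32. Left of the dashed line lie 3 of 4 members and 4 of 4 other PYHIN genes; 12 of 30 interferon-stimulated genes do, and 0 genes of the remaining lists.

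Markers of the labelled cell type were compared between the cultures. Such ratios cannot show whether either culture holds that cell type. Of 15 myeloid and suppressor cell genes, 13 were measured, among them Itgam (0.12 on its brightest probe, from -0.05 to 0.22 over 3 probes), S100a8 at 0.09 and S100a9 at 0.14. Of the 13, 7 were below 0, among them Nos2 at -0.31 and Lyz2 at -0.12, and the median log2 ratio was -0.05; Ly6g and Ly6c2 were not analysed here. In bulk RNA, fewer cells of a type and less RNA per cell cannot be told apart. Monocyte markers, a cell type that carries p200 proteins, had 8 of 9 measured genes below 0, a median of -0.12 and a summed scaled signal of 107807 with IL-6 and 124266 without. Csf1r, the brightest of them, had a log2 ratio of -0.25 on that probe and up to 0.26 on others; without it the sums were 50505 and 56035, with 7 of 8 genes below 0. Macrophage markers had 6 of 9 below 0, a median of -0.09 and sums of 20790 and 22834. For plasmacytoid dendritic cells, a major source of type I interferon, 3 of 7 were below 0 and the median was 0.00. Their sums were 127207 and 131444, of which Siglech alone gave 114307 and 118464. Each sum in this paragraph is weighted to its brightest genes and does not count cells. B cell markers had 7 of 8 below 0 (median -0.06, sums 25911 and 26601), dendritic cell markers 6 of 10 (-0.09, 383646 and 367247) and neutrophil markers 7 of 12 (-0.02, 1085485 and 1075282). T and NK cell markers had 6 of 9 below 0 (-0.11, 16809 and 15573) and megakaryocyte markers 5 of 7 (-0.15, 34186 and 37332). Mast cell and basophil markers had 0 of 8 below 0 (0.20, 46499 and 41072), eosinophil markers 3 of 6 (0.05), erythroid markers 1 of 3 (0.25) and stromal markers 2 of 5 (0.24). The erythroid genes Hbb-bs, Klf1 and Alas2, the stromal genes Col3a1 and Cxcl12, Ncr1 and Xcr1 were not well above background on both arrays. The part of these cell types in the lower p200 signals was not tested.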

How the data were processed

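The deposited intensities come from Feature Extraction 10.7.1.1, run with both spatial and multiplicative detrending, per the file headers. They were not scaled between arrays (75th percentiles 486 with IL-6 and 549.7 without). Log2 of the processed intensity minus the 75th percentile of each array was used, and printed signals were scaled to the geometric mean of both. Flagged outlier spots were left out and 55669 probes remained. A probe was measured when at least 50% of its spots were well above background; 57.9% of probes were with IL-6 and 59.1% without, and 0 spots were saturated. A gene took its brightest measured probe. RefSeq accessions (28109 probes) were named through a GRCm38.p6 table, and 26577 matched 1 symbol. The technical SD came from 266 probes with at least 5 spots, from 0.25 (dim) to 0.04 (bright), by level. The authors' deposited log2 values correlated with these intensities across probes at r = 0.99998 on both arrays. Their median (5.10), lowest (1.65) and highest (19.16) values were the same on both arrays, as they are after quantile normalization. The labels do not state how they were normalized.

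The members, lists and tests were chosen with earlier results of these data known. Named genes were all members and PYHIN genes, the 3 lowest and 3 highest of each list, a fixed set of pathway genes, and measured flanking genes; some genes under this rule are not reported here. Ifi202b, the searched letters and the genes holding them were chosen after values or promoters were seen. The scripts were tested on simulated data. Tools were Python 3.11.15, numpy 2.4.6, pandas 2.3.3, matplotlib 3.10.9, R 4.3.3 and limma 3.58.1 (quantile, cyclic loess, normexp with offset 50).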

Additional observations from a re-analysis of the deposited data

How the results depend on the processing

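No paired analysis was possible because there was 1 array for IL-6 and 1 without. Alternatives were cyclic loess, quantile normalization, centring on the median, the authors' deposited log2 values, normexp, no filter, a stricter and a looser filter on dim probes, outlier spots kept, local correction, the median over probes and, chosen after seeing the data, outermost spots left out, which removes Aim2. Of 47 recomputed member ratios, 46 moved by less than the technical SD and 1 by more, Ifi204 at -0.36 with normexp. Of 98 for other PYHIN probes, 95 moved by less and 98 were below 0. In both counts, values under the filters, outlier spots kept and outermost spots left out are unmoved by construction, because each probe was printed once. So are member values under the median over probes. Quantile normalization and the authors' values nearly repeat each other, with Ifi204 at -0.311 and -0.309 and Mndal at -0.309 and -0.313. With normexp the other PYHIN genes had a median of -0.36 with 2 genes clearly lower, the interferon signalling list had 1 (Irf1; also 1, Ifnb1, without a filter and with the looser one), and 0.954% of all genes were clearly lower. That share was 7.68% without a filter, 2.02% with the stricter and 7.11% with the looser one. Local correction left 1 member clearly lower, and gave the list of inflammasome genes and products a median of -0.062 with 1 gene (Mefv). The median over probes gave other PYHIN genes -0.53. Beyond the genes each setting admits, causes were not tested. The median of all genes ran from -0.03 to 0.02. Aim2, Ifi213 and Ifi214 are limited by signal over background.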
